A study of Rattus norvegicus with 46 samples.

Results

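Ischemic lesions of rats on a standard diet were set against intact brain of rats on the same diet. The libraries were chosen by their labels, which name the tissue and the diet, and numbered 19 of the 46 in the series. There were 11 lesion libraries and 8 intact libraries. The lesions came from male Wistar rats fed the standard diet freely ("ad libitum" in the labels), and their RNA was taken on day 14 after the middle cerebral artery had been occluded (MCAO), which models an ischemic stroke. The intact group was brain tissue of male Wistar rats on the same diet that carried no lesion label. The rats were 3 months old and weighed 320 to 350 g at the start, and they ate the diet for 2 months, after which the lesion group had the occlusion and was fed the same diet for 2 more weeks. The standard diet supplied 3227 kcal/kg, of which 11% came from fat, 24% from protein and 65% from carbohydrate. The other libraries, 19 lesions and 8 intact samples of rats on a ketogenic diet, enter below where a result is set against them. Each library has its own sample number, by which it is called here. The labels do not state that each is a separate rat, nor the brain region, nor whether intact rats had a sham operation, so p-values measure the spread between these samples.

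The middle cerebral artery feeds the striatum and much of the lateral cortex, and its occlusion kills neurons and glia in that territory. In the weeks after, microglia and incoming macrophages clear dead cells and myelin, astrocytes around the injury become reactive, and a scar of extracellular matrix forms in the core. RNA from such tissue therefore mixes what is lost with the dead cells and what is brought in by other cells. In bulk samples of this kind, fewer cells of a type and less RNA per cell cannot be told apart.

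The deposited counts carry Ensembl gene IDs, and the files do not pair them with names. Against a RefSeq gene table of a later rat assembly, 0 of 30452 IDs matched. Marker genes of microglia, astrocytes, neurons and other cells were therefore not read out, the tissue labels were not checked against markers, and 45 lists of such genes, with 827 names, were not used. The results below describe genes by level, size of change and share of the library, and name 4 IDs.

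The libraries held 17068206 to 22664327 counts in lesions and 8883068 to 18868791 counts in intact brain. The shallowest was intact library 85, and 7 of 11 lesions were deeper than every intact library (exact two-sided permutation p = 0.00344, adjusted p = 0.00344 over 7 measures per library). The adjustment is over those 7 measures below, unless another number of classes or sets is given.

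More genes were detected in lesions. On average 14646 ± 130 genes (SD, n = 11) reached 1 CPM (counts scaled to a library total of 1e+06) in a lesion library, and 13979 ± 112 genes (SD, n = 8) did so in an intact library. Lesion libraries ranged from 14467 to 14828 genes and intact libraries from 13834 to 14148, so that the groups did not overlap (exact permutation p = 2.65e-05, the smallest this design can give, adjusted p = 3.09e-05). Depth moved in the same direction, so all libraries were also thinned to the smallest total. At equal depth 17903 to 18339 genes had a count in lesions and 16827 to 17746 in intact brain, again with no overlap (exact permutation p = 2.65e-05, adjusted p = 3.09e-05). Genes at 1 CPM or more in all 11 lesions and below it in all 8 intact libraries numbered 87, against 0 genes in the other direction. With TMM scaling, which corrects each library for a shift in its bulk of genes, these numbers were 62 and 3. In all 11 lesions 13674 genes reached 1 CPM with totals and 13574 with TMM. In all 8 intact libraries 12996 and 13187 genes did. Thinning evens the totals and not the makeup of a library. The 20 genes most abundant over the 19 libraries held 12.3% of lesion and 23.8% of intact counts on average. The part of that in the detection gap was not tested.

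Lesion transcripts were also spread more evenly over genes. The most abundant genes that together hold 50% of a library's counts numbered 840, 1031 and 1120 in lesions (lowest, median and highest library), against 332, 488.5 and 701 in intact brain. Every lesion needed more genes than every intact library to reach that share (exact permutation p = 2.65e-05, adjusted p = 3.09e-05). Intact libraries 83 and 85 lay at the ends of their group: 332 genes sufficed in library 83 and 701 were needed in library 85. Among lesions, library 71 was the most concentrated, with 840 genes.

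The shift sat in the most abundant class. The 64 genes that averaged 1000 CPM or more across the 19 libraries held 18.8% ± 0.89 (SD, n = 11) of lesion counts and 30.2% ± 4.3 (SD, n = 8) of intact counts. In lesions this share ran from 17.7% to 20.8%, and in intact brain from 22.3% in library 85 to 36.7% in library 83. Genes of 100 to 1000 CPM, 1953 in number, held 43.3% ± 1.3 (SD, n = 11) of lesion counts and 40.7% ± 2.7 (SD, n = 8) of intact counts, and here the groups overlapped (exact permutation p = 0.0140, adjusted p = 0.0140 over 5 classes). The 8482 genes of 10 to 100 CPM took 35.6% ± 1.7 (SD, n = 11) in lesions and 27.5% ± 1.6 (SD, n = 8) in intact brain. For genes of 1 to 10 CPM the shares were 2.15% ± 0.25 (SD, n = 11) in lesions and 1.43% ± 0.056 (SD, n = 8) in intact brain. In these last 2 classes all 11 lesions lay above all intact libraries, and in the class of 1000 CPM or more all 11 lay below (exact permutation p = 2.65e-05 and adjusted p = 4.41e-05 for each of the 3). Shares within a library are tied to one another, so a smaller share of one class raises the others.

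**Figure D1:**
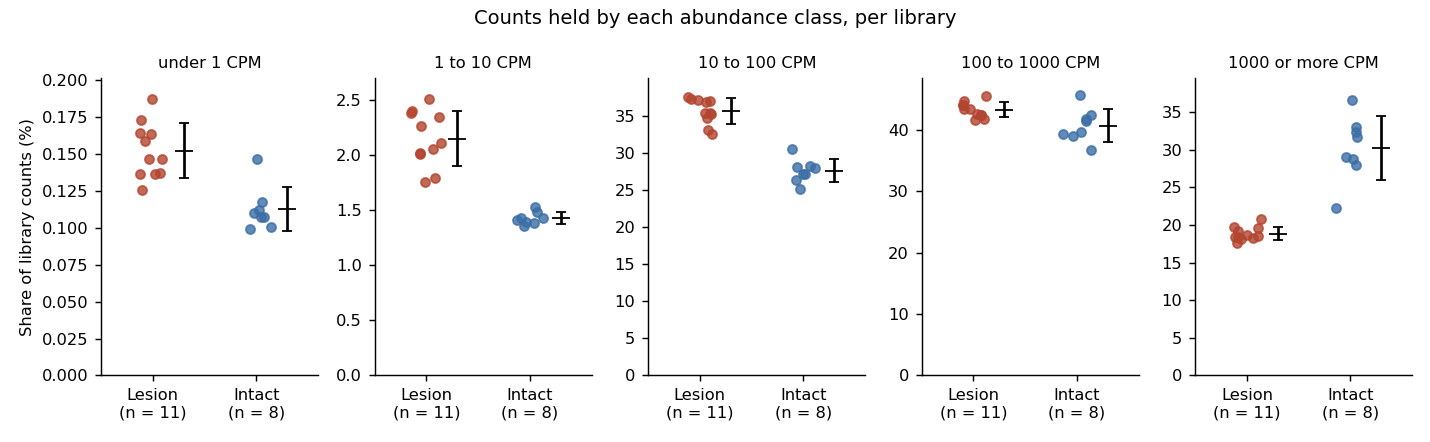
Share of each library's counts (%) held by genes of 5 abundance classes, by mean CPM over the 19 libraries, in lesions and in intact brain; points are libraries, and the bar beside them is the mean with its SD. Lesions lie below all intact libraries in the class of 1000 CPM or more, with 18.8% against 30.2% on average, and above them in the classes of 1 to 10 and 10 to 100 CPM; each panel has its own scale from 0.

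The counts that lesions lost came from few genes, and those they gained were spread over many. When the average profiles of the groups were set against each other, 24.2% of all counts had changed place. On the losing side, 10 genes made up 51.8% of the loss. On the gaining side 516 genes were needed for 50%, and the first 10 gave 13.3%. These sets were chosen for their change, so the next values describe them. The 10 losing genes ranked between 1 and 12 by mean CPM, and all 10 were called lower, with log2 fold changes from -2.09 to -1.40. Together they held 5.76%, 7.53% and 10.9% of counts in lesions (lowest, median and highest library), against 12.2%, 20.3% and 26.3% in intact brain. Lesion library 71 was the highest of its group and intact library 85 the lowest of its own, and the groups did not overlap in this summed share. Taken singly, 5 of the 10 genes had CPM ranges that were apart. Of the 516 gaining genes, 458 were called higher and 1 lower. The 516 ranked between 9 and 4877 by mean CPM, with a median rank of 1117, and each averaged at least 43.9 CPM. Their summed share was 11.6%, 20.3% and 26.0% in lesions and 7.43%, 7.57% and 8.51% in intact brain, with lesion library 71 the lowest and lesion library 67 the highest.

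Both sets were then read in libraries that had no part in choosing them. In rats on the ketogenic diet, the 10 genes held 6.65% ± 1.8 (SD, n = 19) of lesion counts and 14.4% ± 3.1 (SD, n = 8) of intact counts (exact permutation p = 1.80e-06, adjusted p = 3.60e-06 over 4 sets). Of those 19 lesions, 18 lay below all 8 intact libraries. The 516 genes held 21.3% ± 6.3 (SD, n = 19) in ketogenic-diet lesions and 8.50% ± 0.69 (SD, n = 8) in ketogenic-diet intact brain, and 19 of 19 lesions lay above all intact libraries (exact permutation p = 9.01e-07, adjusted p = 3.60e-06). The share of the 10 genes fell by 12.5 percentage points on the standard diet, where the genes were chosen, and fell by 7.72 percentage points on the ketogenic diet. Whether the drops differ was not tested.

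The 2 called IDs with the largest fall in mean CPM and the 2 with the largest rise are given by name. Values are in CPM of the library total, and log2 fold changes are from edgeR with TMM scaling, so a ratio of the CPM values is not the fitted fold change. ENSRNOG00000034234 was the most abundant gene in 8 of 8 intact libraries and in 9 of 11 lesions. It had 13265, 18121 and 31575 CPM in lesions (lowest, median and highest library), against 34022, 52425 and 65655 CPM in intact brain. All 11 lesions lay below all intact libraries, lesion library 71 coming nearest to them. Its log2 fold change was -1.82 (SE 0.18, adjusted p = 4.85e-08).

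ENSRNOG00000031979 ranked 2 by mean level in intact brain and 4 in lesions. It had 6188, 8662 and 11717 CPM in lesions, against 13460.4, 25661 and 33159 CPM in intact brain, with intact library 85 at the low end and library 83 at the high end. The groups did not overlap, and the log2 fold change was -1.94 (SE 0.17, adjusted p = 1.12e-08). Averages were 8419 ± 1596 CPM (SD, n = 11) in lesions and 25195 ± 5762 CPM (SD, n = 8) in intact brain. The loss of ENSRNOG00000034234 alone came to 3.35% of all counts.

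The gains of single genes were smaller in counts. ENSRNOG00000018454 ranked 2 in lesions and 17 in intact brain by mean level. It had 3813, 10524 and 19534 CPM in lesions, against 2388, 2668 and 3414 CPM in intact brain. All 11 lesions lay above all intact libraries, but they spread widely, from library 71 at the low end to library 67 at the high end. The log2 fold change was 1.70 (SE 0.23, adjusted p = 2.23e-06). ENSRNOG00000005195 had 3586, 7072 and 11111 CPM in lesions, against 1935, 2349 and 3073 CPM in intact brain. Its groups did not overlap either, and its log2 fold change was 1.23 (SE 0.20, adjusted p = 1.67e-05).

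**Figure D2:**
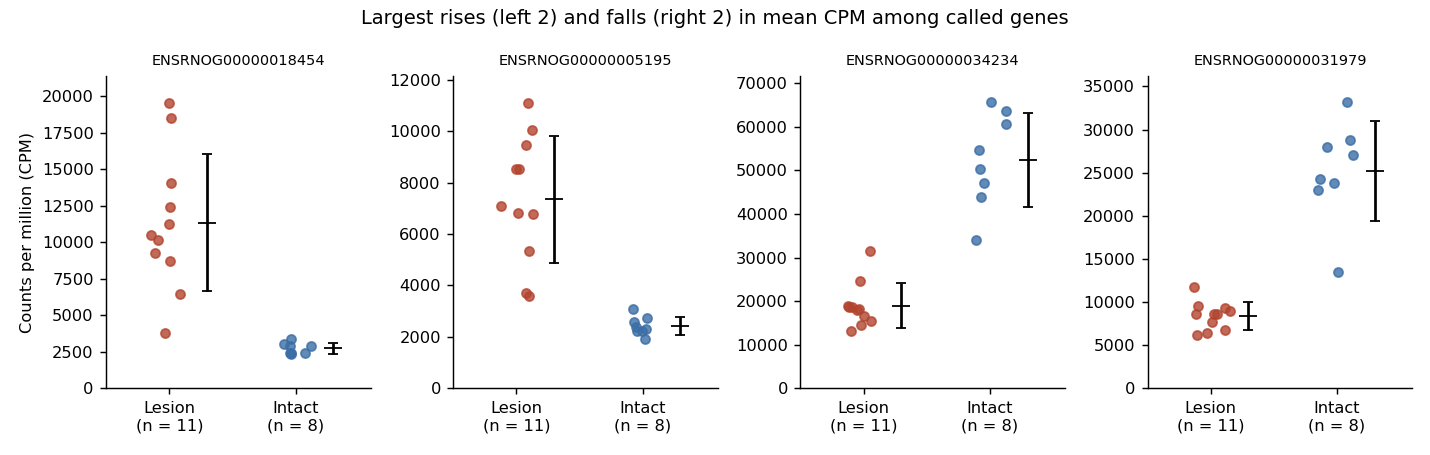
CPM of the library total for the 2 IDs with the largest rise and the 2 with the largest fall in mean CPM in lesions; points are libraries, and the bar beside them is the mean with its SD. In each panel the lesion and intact libraries do not overlap, and lesions spread more than intact libraries for both IDs that are higher; each panel has its own scale from 0.

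The same 4 IDs moved in the same direction on the ketogenic diet, with log2 fold changes of -1.51 (SE 0.19) for ENSRNOG00000034234, -1.42 (SE 0.18) for ENSRNOG00000031979, 1.66 (SE 0.35) for ENSRNOG00000018454 and 1.29 (SE 0.26) for ENSRNOG00000005195, and the largest of their edgeR adjusted p was 0.000166. Mean levels of ENSRNOG00000034234 there were 17066 CPM in lesions and 40589 CPM in intact brain. Over all 46 libraries, 0 of 16140 genes (0%) passed the edgeR test for a lesion response that differs between diets, 719 (4.45%) had an unadjusted p under 0.05, and limma voom called 13 (0.0805%). None of the 4 IDs passed, with adjusted p = 0.9999 for each in edgeR. The largest difference was that of ENSRNOG00000031979, at 0.52 on the log2 scale (SE 0.26, unadjusted p = 0.0510). On simulated counts the edgeR interaction test recovered 46% of 2-fold differences, so 0 calls does not show that the responses are alike.

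Across all genes the response was broad, and its shape differed between rises and falls. Called higher in lesions were 5291 genes (34.3% of the 15446 tested) and called lower 5272 (34.1%), at a Benjamini-Hochberg adjusted p under 0.05 in edgeR's quasi-likelihood test. TMM scaling centers the bulk of genes, so this even split is tied to it. With library totals only, 8158 genes were called higher and 2490 lower. Rises had the longer tail. The middle rise measured 0.88 on the log2 scale, and the upper 5% of rises began at 3.57. The middle fall measured -0.61, and the strongest 5% of falls began at -1.32. At least 2-fold higher were 2360 genes (15.3%) and at least 2-fold lower 833 (5.39%). At least 4-fold the numbers were 1065 (6.89%) and 34 (0.22%). The number of such falls moved with the method, to 111 with DESeq2, 257 without a low-count filter, 14 with library totals and 22 after thinning, while such rises numbered 1468, 1532, 1386 and 962 under these settings. DESeq2 and the fit without a filter took in 22000 genes, and the thinned fit 14474. The ranges of the lesion and intact libraries, in log2 CPM after TMM scaling, were apart for 1773 genes that were higher in lesions (11.5%) and for 1641 that were lower (10.6%).

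Direction went with abundance. Among genes under 1 CPM that were tested, 224 were called higher and 180 lower of 861. At 1 to 10 CPM the calls were 1538 higher and 954 lower of 4086 tested. At 10 to 100 CPM they were nearly even, with 3075 higher and 2991 lower of 8482. At 100 to 1000 CPM falls prevailed, with 441 higher and 1105 lower of 1953, and so they did among genes of 1000 CPM or more, with 13 higher and 42 lower of 64. The median log2 fold change over all genes tested in a class was 0.15 at 1 to 10 CPM, 0.0033 at 10 to 100 CPM, -0.32 at 100 to 1000 CPM and -0.66 at 1000 CPM or more. Over all genes tested it was -0.0061, which TMM scaling sets near 0. The balance within a class moved with the scale. With totals only, 4907 genes were called higher and 1298 lower at 10 to 100 CPM, and 739 and 617 at 100 to 1000 CPM. The class medians still fell from 1 to 10 CPM upward, at 0.50, 0.35, 0.020 and -0.32. Under 1 CPM the median lay below that at 1 to 10 CPM on both scales, at 0.041 with TMM and 0.39 with totals.

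Size of change among called genes also went with abundance, and not in the same way for both directions. Of the genes called higher, 59.9% rose at least 2-fold at 1 to 10 CPM, 35.3% at 10 to 100 CPM and 33.8% at 100 to 1000 CPM. Of those called lower, 28.0% fell at least 2-fold at 1 to 10 CPM, 10.2% at 10 to 100 CPM and 14.1% at 100 to 1000 CPM. These shares are of called genes, and how far the power to call a change shapes them was not tested. Of all genes tested, called rises of at least 2-fold made up 22.6%, 12.8% and 7.63% in these classes. Such falls made up 6.53%, 3.58% and 7.99%. At 1000 CPM or more the shares of genes tested were 18.8% for rises and 34.4% for falls. In the top class the calls were large on both sides: 12 of 13 rises and 22 of 42 falls were at least 2-fold, and 5 rises and 3 falls at least 4-fold. Rises of at least 16-fold were found in every class, with 12, 69, 68, 16 and 2 genes from the lowest class to the highest, which is 167 in all (1.08%), against 0 falls of that size.

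**Figure D3:**
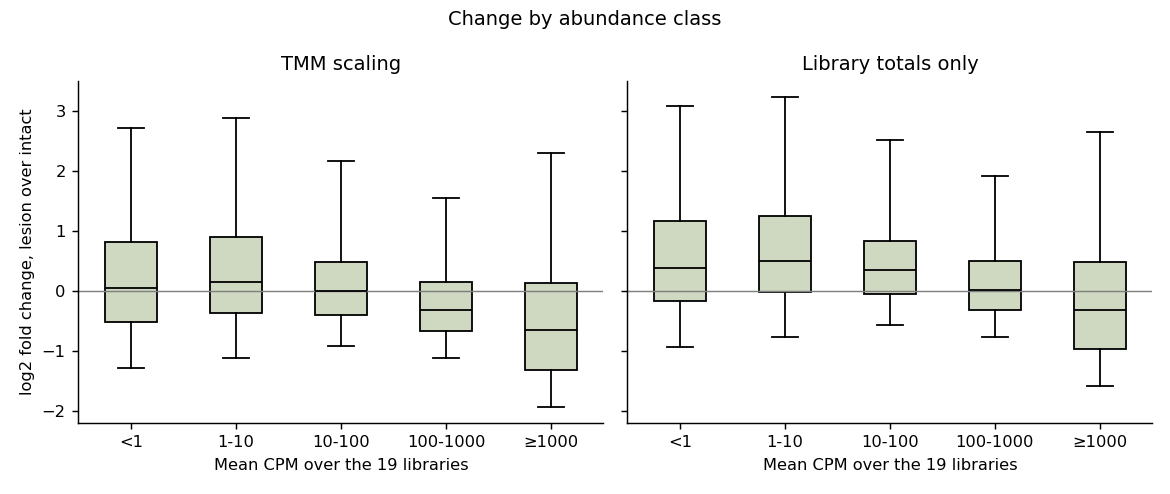
Log2 fold change (lesion over intact) of all 15446 genes tested, by mean CPM over the 19 libraries, with TMM scaling and with library totals only; boxes span the middle 50% of genes with the median as a line, and whiskers run from the 5th to the 95th percentile. The median falls from 0.15 at 1 to 10 CPM to -0.66 at 1000 CPM or more with TMM scaling, and from 0.50 to -0.32 with totals. Under 1 CPM it is 0.041 with TMM scaling and 0.39 with totals.

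Read gene by gene after TMM scaling, lesions varied more from one another than intact libraries did among abundant genes. The median SD between libraries, in log2 CPM, was 0.37 in lesions and 0.21 in intact brain for genes of 1000 CPM or more, and 0.26 in lesions and 0.17 in intact brain at 100 to 1000 CPM. At 10 to 100 CPM it was 0.22 in lesions and 0.21 in intact brain, and at 1 to 10 CPM 0.41 in lesions and 0.42 in intact brain. Under 1 CPM the order was turned round, with 0.53 in lesions and 0.72 in intact brain, where intact libraries were also shallower. Summed shares of the most abundant genes varied more in intact brain. For genes of 1000 CPM or more the SD of the share was 0.89 percentage points in lesions and 4.3 in intact brain.

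The loss of a few abundant transcripts bears on the scale on which every other gene is read. Division by the library total gives each remaining gene a larger share when the most abundant ones shrink. With totals only, the median gene was 0.34 higher in lesions on the log2 scale, with 8158 genes called higher (52.8%) and 2490 lower (16.1%). TMM factors absorbed that shift: their log2 value averaged 0.15 ± 0.042 (SD, n = 11) in lesions and -0.20 ± 0.078 (SD, n = 8) in intact brain, and no lesion overlapped an intact library (exact permutation p = 2.65e-05, adjusted p = 3.09e-05).

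How many abundant genes account for the shift was read by leaving them out of the totals. Without the 10 most abundant genes, which held 8.52% of lesion and 19.3% of intact counts, the median gene was 0.16 higher. Without 20 genes it was 0.13 higher, without 100 genes 0.11, without 500 genes 0.052 and without 1000 genes 0.0059, and without 2000 genes it was lower, at -0.039. The first 10 genes thus covered 0.18 of the 0.34, which is the log2 ratio of what they left to the rest in lesions and in intact brain. The remainder was spread over many further genes, among which falls prevailed: of the 1000 most abundant, 184 were called higher and 643 lower with TMM scaling. Calls higher in lesions made up 76.6% of all calls with plain totals, 62.9% without 10 genes, 58.8% without 100, 51.3% without 1000 and 47.9% without 2000.

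**Figure D4:**
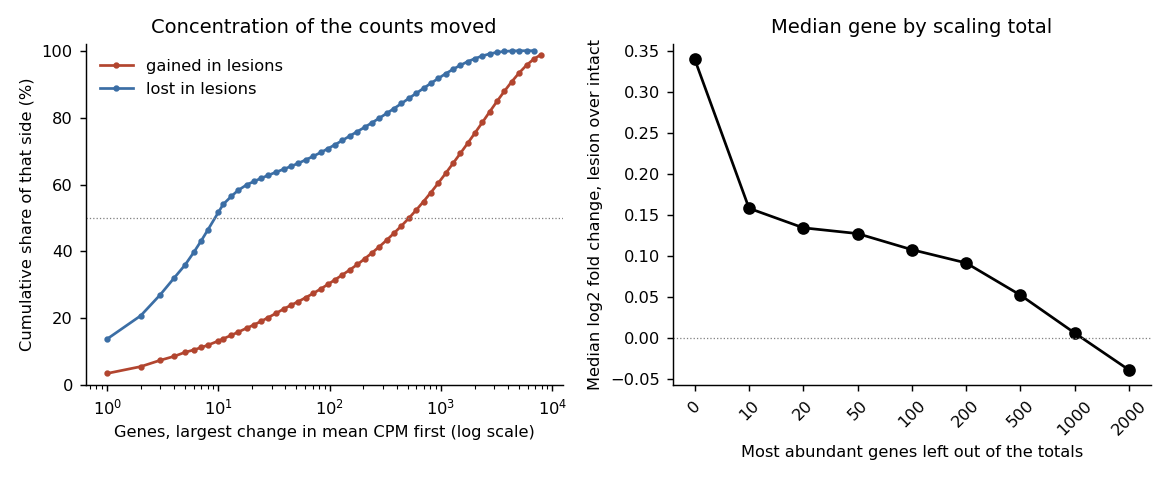
Left, cumulative share (%) of the counts gained and of the counts lost in lesions against the number of genes, taken from the largest change in mean CPM down, on a log axis; right, the median log2 fold change (lesion over intact) of all genes tested when the most abundant genes are left out of the library totals. The loss reaches 51.8% with 10 genes and the gain 50% with 516; the median gene is at 0.34 with full totals, at 0.0059 without 1000 genes and at -0.039 without 2000.

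Which genes were called lower depended on the scale. All 5291 genes called higher with TMM were also called higher with totals. Of the 5272 called lower, 2490 were called lower with totals, 2698 were not called and 84 were called higher. The median log2 fold change with TMM was -0.86 for the 2490, -0.43 for the 2698 and -0.17 for the 84. A further 2783 genes that TMM left uncalled were called higher with totals. Under all 5 scalings run (TMM, RLE, upper quartile, totals, and totals without 20 genes), 5239 genes were called higher (33.9% of those tested) and 2490 lower (16.1%). By class, these numbered 1528 higher and 454 lower at 1 to 10 CPM, 3044 and 1298 at 10 to 100 CPM, 434 and 617 at 100 to 1000 CPM, and 13 and 34 at 1000 CPM or more. Such a count is set on each side by the scaling that calls fewest there, and the 2490 are those that totals alone called lower, so its balance of rises and falls is no measure of the response. With totals alone the class of 100 to 1000 CPM turned round, with 739 called higher and 617 lower.

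Within the intact group, libraries with a larger share in the 20 most abundant genes had smaller TMM factors (Pearson r = -0.882, exact permutation p = 0.00590, adjusted p = 0.0177 over 3 relations; Spearman rho = -0.714, exact permutation p = 0.0576, adjusted p = 0.0864; n = 8). Without the 2 libraries farthest from the median share r was -0.535. Leaving those out also narrows the range of shares, and whether the relation rests on them was not tested. In lesions r was -0.604 (permutation p = 0.0354, adjusted p = 0.0531) and rho -0.609 (permutation p = 0.0521, adjusted p = 0.0864; n = 11), and r was -0.325 without the 2 farthest. Neither relation passed in lesions. Both values come from the same counts, and TMM offsets a large share in a few genes. A negative relation is thus partly built in, and these values only describe the factors.

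Lesions differed in how far they had moved, and this was read with genes called in a fit without the library in question. For each library, the genes called at least 2-fold in a fit of the 18 others served as its yardstick, which gave 2239 to 2506 higher genes and 764 to 957 lower genes. For some libraries the yardstick held fewer genes than that fit called, so the fit alone did not set it. For intact library 83 it held 2386 higher genes, against 2428 called. The intact libraries that each library was read against were among those 18. They had a part in choosing the genes, so the distance of a held-out lesion can be overstated. Over the higher genes, the median difference of a held-out lesion from intact brain was 0.70, 1.84 and 2.40 on the log2 scale (lowest, median and highest library), against -0.17, 0.029 and 0.33 for a held-out intact library read from the other 7. Over the lower genes it was -1.60, -1.21 and -0.57 in lesions and -0.26, 0.011 and 0.18 in intact brain. Every lesion lay outside the range of intact libraries on both readings. Lesion libraries 71 and 70 lay nearest to intact brain, at 0.70 and 0.94 for higher genes and at -0.57 and -0.76 for lower genes, and library 67 lay farthest.

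A held-out lesion exceeded every intact library in 56.3%, 92.0% and 97.3% of its higher genes (lowest, median and highest lesion). A held-out intact library exceeded its 7 others in 2.99%, 10.4% and 28.0% of them. For lower genes, a held-out lesion lay below every intact library in 61.0%, 88.4% and 92.9% of them, and a held-out intact library below its 7 others in 4.76%, 11.5% and 33.2%. No relation of the readings for higher genes with depth was detected across the 11 lesions (Pearson r = -0.0896, permutation p = 0.752; Spearman rho = -0.182, permutation p = 0.598; adjusted p = 0.752 and 0.598), and r was 0.213 without the 2 libraries farthest from the median depth.

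**Figure D5:**
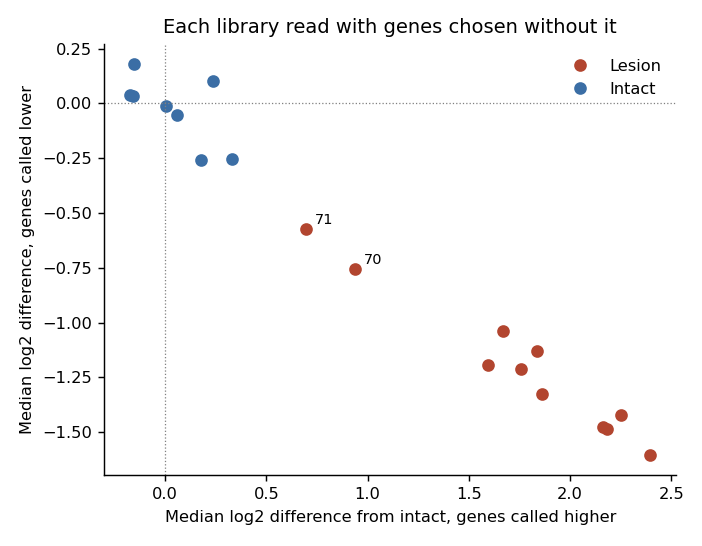
Median log2 difference of each library from intact brain over genes called at least 2-fold higher (horizontal axis) and at least 2-fold lower (vertical axis) in a fit that left that library out; points are 11 lesion and 8 intact libraries of the standard diet. Intact libraries lie around 0 and lesions apart from them, with lesion libraries 71 and 70 nearest, at 0.70 and 0.94 on the horizontal axis.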

How the data were processed

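RNA was measured in 46 libraries, of which the 19 of the standard diet are described. The members and lists were chosen with earlier results of these data known. Per the labels' protocols, libraries were made from polyA RNA with a directional kit. The build was mRatBN7.2, per the submitters' processing notes, which also name HTSeq 0.7.2 and HISAT2 2.0.5. For the annotation release and the strand setting, which decide how overlapping reads are shared, the sources used here give nothing, and overlapping, antisense and near-identical genes were not told apart. The deposited values are raw counts per Ensembl gene ID, with no normalization. The series table and the per-sample files differed in 0 cells, and 39 columns of the table that belong to no sample described here were not used.

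Counts were tested with edgeR 4.0.16 (TMM, filterByExpr, robust quasi-likelihood F test) on the 19 libraries, and the interaction with diet on all 46. CPM are counts scaled to a library total of 1e+06. Log2 CPM per library used TMM and a prior count of 2. One value per library was tested by exact permutation, and a correlation with n = 11 by 100000 resamples. Intervals and floors were not used. The named IDs were the 2 called genes with the largest rise and the 2 with the largest fall in mean CPM, the rule set for IDs without names. Alternatives were DESeq2, limma 3.58.1 voom, other scalings and filters, 1 fit over 46 libraries and leaving out each library. The tests of the scaling without 10, 50 or more genes, of thinning and of leaving out intact libraries 83 and 85 together were chosen after seeing the data. On simulated counts with 200 changed genes of 15446, the lesion test recovered 78% of 2-fold and 32% of 1.41-fold changes. The edgeR interaction test recovered 46% and 22%. False calls were 3.5% of calls in the lesion test and 12.7% with DESeq2. The simulation held no shift in abundant transcripts and changed few genes, whereas 68.4% of genes were called in the data.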

Additional observations from a re-analysis of the deposited data

Results flagged for a closer look

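In the intact group, library 85 had 16827 genes with at least 1 count, and the next lowest intact library had 17833. The gap took up 0.556 of the group's range, which put the library apart from the 7 others. It was also the shallowest library, with 8883068 counts. With all libraries thinned to that total it still had the lowest number of its group, at 16827 against 17282 in the next, but did not stand apart there. The part of depth in the first value was not tested further. Of 16 values checked in the intact group this was the only 1 that stood apart; chance alone flags about 1 in 20.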

How the results depend on the processing

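The count of called genes stayed within 1.5 times its main value of 10563 under every alternative run, from 9903 after thinning to 11487 with DESeq2. The number of genes entered differed: 15446 in the main fit, 22000 with DESeq2 and without a filter, and 14474 after thinning. The share called was 68.4% in the main fit, 52.2% with DESeq2 and 51.7% without a filter. Leaving out each library in turn gave 10273 to 10863 calls, 2239 to 2506 rises and 766 to 957 falls of at least 2-fold, and 27 to 47 falls of at least 4-fold. The 4 named IDs kept their direction and their call throughout, with the largest adjusted p at 7.80e-05 for ENSRNOG00000005195. With library totals only, 8158 genes were called higher and 2490 lower, with 245 falls of at least 2-fold and 14 of at least 4-fold; the median was 0.34 and the share of calls higher 76.6%. By class that setting gave 87 lower genes under 1 CPM, 454 lower at 1 to 10 CPM, 4907 higher and 1298 lower at 10 to 100 CPM, and 739 higher and 617 lower at 100 to 1000 CPM. Totals without 20 genes gave 531 falls of at least 2-fold, a median of 0.13 and 61.0% of calls higher. Without 10 and 50 genes the shares were 62.9% and 60.3% and the medians 0.16 and 0.13, and without 100 and 200 genes the medians were 0.11 and 0.091. Falls of at least 4-fold numbered 111 with DESeq2, 257 without a low-count filter and 22 after thinning. Falls of at least 16-fold, 0 in the main fit, numbered 2 with DESeq2, 1 with limma voom, 5 with a mean of at least 1 CPM, 1 with all 46 libraries fitted and 32 without a filter. Without a filter there were also 260 rises of at least 16-fold and 1261 falls of at least 2-fold. The cause of these moves with method and filter was not tested. Without intact libraries 83 and 85 there were 5278 higher and 5124 lower genes. No paired analysis was possible because the groups compared share no sample numbers. The counts hold no measure of RNA per cell or per weight of tissue, so no scaling was shown to be the right one.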
